A study of Mus musculus with 13 samples.

Results

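The acute-phase genes followed here in mouse liver numbered 10: the serum amyloid A genes Saa1, Saa2, Saa3 and Saa4, the orosomucoid genes Orm1, Orm2 and Orm3, the lipocalin gene Lcn2, and the pentraxin genes Crp and Apcs. They were taken by name, as 10 of the 54532 genes in the table, and all 10 were among the 14280 genes that passed the filter on low counts and were tested. The acute-phase response is the change in secreted plasma proteins with which the liver answers infection and tissue injury. Interleukin 6 acts on hepatocytes through STAT3, interleukin 1 and tumor necrosis factor act through NF-kB and C/EBP factors, and the amyloid A and orosomucoid genes are classical targets of these signals. Saa1 and Saa2 encode the acute-phase amyloid A apolipoproteins of high-density lipoprotein, and Saa4 encodes the constitutive form. Saa3 is made by macrophages and adipocytes as well as by hepatocytes. Orosomucoids are abundant plasma glycoproteins that bind drugs and lipids, lipocalin 2 withholds iron from bacteria by binding their siderophores, and pentraxins bind phosphocholine, bacteria and dead cells. In mice serum amyloid P component, the product of Apcs, is the pentraxin with the strong acute-phase response, and C-reactive protein responds little.

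All animals were wild-type C57 BL6 mice of 8 weeks, and their livers were taken 6 h after injection for RNA sequencing. The saline group (n = 3) had no agent. The GalN/LPS group (n = 3) received an intraperitoneal injection of 500 mg/kg D-galactosamine and 5 µg/kg lipopolysaccharide, a model of acute liver failure in which galactosamine depletes uridine nucleotides and so blocks transcription in hepatocytes. The pretreated group (n = 4) had 16,16-dimethyl prostaglandin E2 (dmPGE2, a stable prostaglandin E2 analogue) at 300 µg/kg 1 h before the same GalN/LPS. The dmPGE2 group (n = 3) received dmPGE2 without GalN/LPS, with no interval recorded. The labels do not say that each library came from its own animal, so the p-values may measure only the spread between samples. The GalN/LPS group is that of the columns named ALF, and the series text speaks of AILI mice where the sample labels give GalN/LPS.

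Total counts ranged from 14829838 to 20777809 per library. Levels are CPM, counts relative to the library size, after scaling by the trimmed mean of M values (TMM), and values after ± are standard errors of log2 fold changes or SD of levels. Calls are adjusted p-values under 0.05 in edgeR's quasi-likelihood test over all genes tested. TMM factors were lowest in the pretreated libraries, at 0.683 to 0.830 against 0.904 to 1.28 elsewhere. With library totals in their place, the median log2 fold change over all genes moved from -0.10 to -0.61 in pretreated against GalN/LPS, from 0.14 to -0.54 in pretreated against saline, from 0.02 to -0.15 in GalN/LPS against saline, and from -0.11 to -0.69 in the interaction. The share of higher genes among all calls moved with it, from 44.7% to 8.30% in pretreated against GalN/LPS, from 53.5% to 19.8% in pretreated against saline and from 44.0% to 3.38% in the interaction. The hepatocyte marker list was high in all libraries, but its summed levels differed between groups. They were 90819.7 to 102846 CPM in saline, 94692.7 to 136651 CPM in GalN/LPS, 144722 to 226118 CPM in pretreated and 70739.8 to 76876.4 CPM in dmPGE2 livers. On this TMM scale the pretreated libraries lay above all others and the dmPGE2 libraries below all others. The low TMM factors of the pretreated libraries raise their scaled levels, so their separation depends on the scaling. Whole livers were sequenced, so fewer cells of a type and less RNA per cell cannot be told apart. Libraries within a group stood apart in the acute-phase genes, pretreated 1 and dmPGE2 2 above all, and results that rest on them are given with and without them.

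The Saa and Orm genes lie in clusters of similar copies, which bears on how far their reads can be assigned. On GRCm38 the amyloid genes lie on chromosome 7, with Saa3 at 46711998 to 46715700, Saa4 at 46727998 to 46732603 and Saa1 at 46740497 to 46742980 on the minus strand, and Saa2 at 46751790 to 46754313 on the plus strand. The orosomucoid genes lie on the plus strand of chromosome 4, with Orm1 at 63344560 to 63348163, Orm3 at 63356162 to 63359511 and Orm2 at 63362449 to 63365878. The coding sequences of Saa1 and Saa2 were identical at 348 of 366 positions (95.1%), while that of Saa1 was 75.9% identical to Saa3 and 65.0% to Saa4. Orm1 was 89.9% identical to Orm2 and 86.0% to Orm3. The opening 90 coding bases of Saa1 and Saa2 are printed from the GENCODE M21 transcripts to show how alike these mRNAs are, and capitals mark the 4 bases that differ from Saa1.
Saa1: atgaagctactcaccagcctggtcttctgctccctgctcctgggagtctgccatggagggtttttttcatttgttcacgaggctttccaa
Saa2: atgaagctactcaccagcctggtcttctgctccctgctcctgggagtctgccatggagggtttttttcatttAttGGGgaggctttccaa
The opening 69 coding bases of the orosomucoid mRNAs follow in the same way, with 8 bases of Orm2 and 9 of Orm3 in capitals where they differ from Orm1.
Orm1: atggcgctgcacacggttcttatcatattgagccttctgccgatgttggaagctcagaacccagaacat
Orm2: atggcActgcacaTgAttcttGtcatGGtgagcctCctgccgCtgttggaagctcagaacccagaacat
Orm3: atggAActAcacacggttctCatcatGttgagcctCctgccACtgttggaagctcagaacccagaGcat
Of all 50-base stretches of the mRNA, 14.8% in Saa1, 13.3% in Saa2, 20.4% in Orm1 and 22.7% in Orm2 also occurred in a transcript of another gene, against 1.78% in Saa3, 1.27% in Saa4 and 3.59% in Orm3. At 100 bases such stretches remained in Orm1 and Orm2 (6.95% of each), and at 150 bases in none of the 10. The sources used here give neither read length nor counting rule, so the split of reads between Saa1 and Saa2 and between Orm1 and Orm2 is uncertain, and the sums of each family are given too.

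Saa1 and Saa2, the acute-phase amyloid mRNAs, were low in GalN/LPS livers and rose with pretreatment, and they varied more between libraries of the same group than nearly any other gene. Saa1 stood at 1232, 241 and 1975 CPM in saline 1 to 3 and at 93.7, 115 and 333 CPM in GalN/LPS 1 to 3. It stood at 7946, 4184, 115 and 442 CPM in pretreated 1 to 4 and at 1587, 5880 and 1066 CPM in dmPGE2 1 to 3. The pretreated livers thus fell into 2 that were far above every saline library and 2 that were not, with pretreated 3 level with GalN/LPS 2. Saa2 stood at 679, 68.4 and 1433 CPM in saline livers, 33.7, 26.0 and 118 CPM in GalN/LPS, 5902, 2037, 34.5 and 192 CPM in pretreated, and 1126, 5762 and 690 CPM in dmPGE2 livers. Saa2 was called lower in GalN/LPS than in saline livers (log2 fold change -3.62 ± 1.41, adjusted p = 0.0408, edgeR), while Saa1 missed the threshold (-2.67 ± 1.13, adjusted p = 0.0588). Both rose from GalN/LPS to pretreated livers, Saa1 by 4.13 ± 1.19 (adjusted p = 0.00868) and Saa2 by 5.11 ± 1.49 (adjusted p = 0.00945). The groups overlapped in each of these comparisons. Against saline, the pretreated livers did not pass the test for Saa1 (1.46 ± 1.04, adjusted p = 0.227) or Saa2 (1.49 ± 1.24, adjusted p = 0.303).

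Summed, Saa1 and Saa2 gave 309.9 to 3409 CPM in saline, 127 to 451 CPM in GalN/LPS, 149.5 to 13848 CPM in pretreated and 1756 to 11642 CPM in dmPGE2 livers. The ratio of group means was 0.128 for GalN/LPS to saline and 21.7 for pretreated to GalN/LPS, a description of group means with overlapping libraries. The ratio of Saa2 to Saa1 counts ran from 0.225 in GalN/LPS 2 to 0.980 in dmPGE2 2 and was 0.434 or less in the 6 libraries with under 500 CPM of Saa1 and 0.487 or more in the other 7. The Saa2 call in GalN/LPS against saline was lost without saline 1, saline 3, GalN/LPS 1 or GalN/LPS 2 (adjusted p from 0.0578 to 0.13), with the replicate number as a block (0.0558) and on FPKM with limma (0.129). The rises of Saa1 and Saa2 with pretreatment held without pretreated 1 (3.13, adjusted p = 0.0244, and 3.67, adjusted p = 0.0271), but not on FPKM with limma (2.82, adjusted p = 0.0707, and 3.39, adjusted p = 0.0738).

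**Figure D1:**
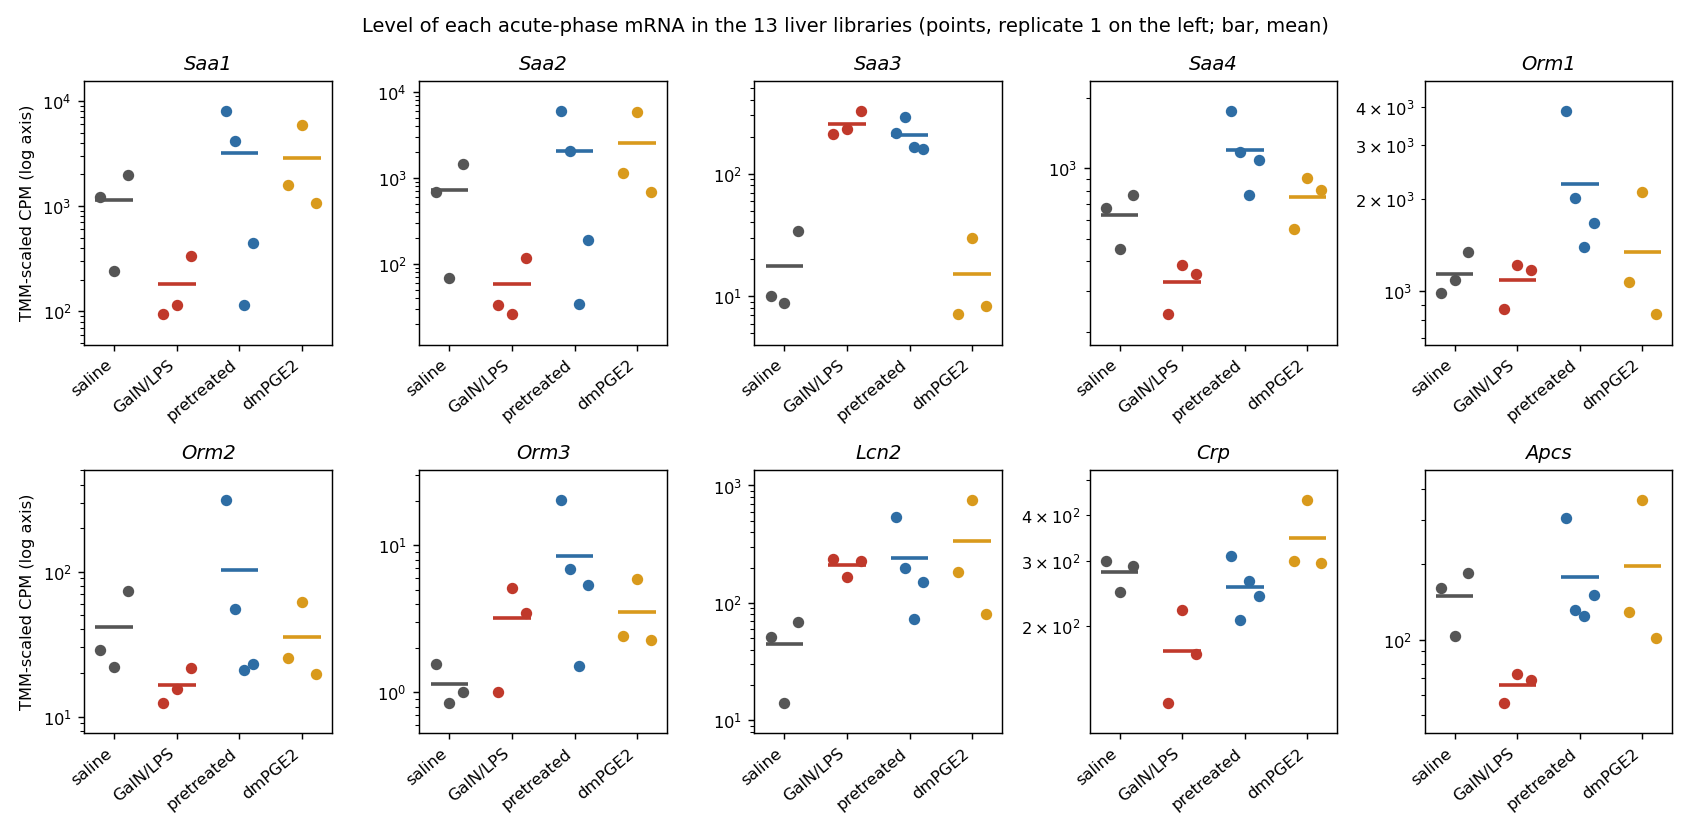
Level of each of the 10 mRNAs in every library, in TMM-scaled CPM on a log axis that differs between panels, with points for libraries in replicate order and a bar for the group mean (n = 3, 3, 4 and 3). Saa1 and Saa2 span from 115 to 7946 and from 34.5 to 5902 CPM within the pretreated group, while Saa3 separates both GalN/LPS-injected groups from the other groups with no overlap.

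Saa3, the amyloid form that macrophages also make, rose in GalN/LPS against saline livers, where its neighbors Saa2 and Saa4 fell and Saa1 missed the threshold. It measured 10.1, 8.77 and 34.2 CPM in the saline libraries and 209, 229.9 and 320.1 CPM after GalN/LPS. In pretreated livers it measured 214, 291, 163 and 159 CPM, and in dmPGE2 livers 7.16, 29.8 and 8.44 CPM. The groups given GalN/LPS lay entirely above those not given it. Saa3 rose by 3.84 ± 0.56 on the log2 scale from saline to GalN/LPS (adjusted p = 2.88e-05) and by 3.54 ± 0.54 from saline to pretreated livers (adjusted p = 3.25e-05). Its difference between pretreated and GalN/LPS livers was -0.29 ± 0.46 (adjusted p = 0.609). As a share of the counts of Saa1, Saa2 and Saa3, it made up 0.528% to 2.75% in saline and 0.255% to 0.478% in dmPGE2 livers. In GalN/LPS livers it made up 41.5% to 62.2%, and in pretreated 1 to 4 it made up 1.52%, 4.47%, 52.1% and 20.0%.

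Markers of cells other than hepatocytes rose with Saa3 in GalN/LPS against saline livers, where 27.4% of all genes were called higher. All 11 neutrophil markers that passed the filter, of 14 listed, did so, as did 11 of 12 Kupffer cell and macrophage markers. All 10 sinusoidal endothelial markers, 5 of 6 cholangiocyte markers tested (of 8) and 2 of 4 adipocyte markers tested (of 8) did so too. The filter on low counts keeps a gene expressed in a single group. A marker near 0 in saline livers is thus tested only if another group holds it, and its rise is then partly set in advance. In pretreated against GalN/LPS livers, where Saa3 did not pass the test, 9 of the neutrophil, 12 of the macrophage, 10 of the endothelial, 3 of the cholangiocyte and 2 of the adipocyte markers fell, against 30.1% of all genes. The summed levels of the neutrophil markers were 5.33 to 19.9 CPM in saline, 692 to 923 CPM in GalN/LPS, 269 to 427 CPM in pretreated and 6.24 to 10.05 CPM in dmPGE2 livers. For Kupffer cells and macrophages they were 245 to 317, 985 to 1584, 456 to 698 and 319 to 428 CPM in the same order, and for sinusoidal endothelium 88.7 to 105, 609.8 to 743, 179.9 to 386 and 98.2 to 130.5 CPM. The cholangiocyte markers summed to 45.4 to 69.3, 93.2 to 180.2, 66.3 to 103 and 52.8 to 61.9 CPM, and all 8 adipocyte markers to 10.8 to 11.3, 48.0 to 63.7, 25.3 to 55.4 and 14.5 to 16.9 CPM. The adipocyte markers that rose were Fabp4, a fatty acid carrier, and Plin4, a lipid droplet protein. Of the others, Lep was at 0 counts in all 13 libraries, Plin1 at 0 in 12 of them, and Adipoq between 0 and 0.189 CPM. The part of these cells in the Saa3 result was not tested.

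**Figure D2:**
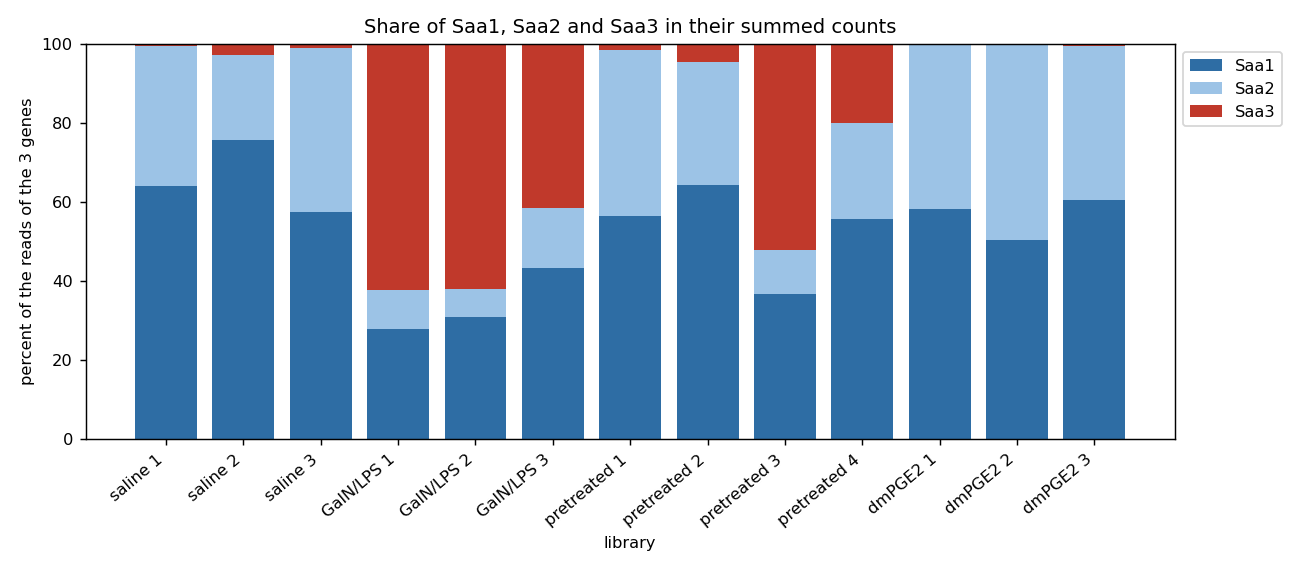
Stacked bars give the percent of the summed counts of Saa1, Saa2 and Saa3 that each gene held in each of the 13 libraries. Saa3 held 41.5% to 62.2% in the GalN/LPS livers and 52.1% in pretreated 3, against at most 2.75% in saline and 0.478% in dmPGE2 livers.

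Saa4, the constitutive amyloid form, fell in GalN/LPS livers and rose above saline in pretreated livers with far less spread than Saa1 and Saa2. It stood at 677, 451 and 768 CPM in saline and at 238, 385 and 355 CPM in GalN/LPS livers. In pretreated livers it stood at 1747, 1177, 767 and 1083 CPM, and in dmPGE2 livers at 551, 912 and 809 CPM. All 3 GalN/LPS libraries lay below every other library. Saa4 fell by 0.96 ± 0.29 on the log2 scale from saline to GalN/LPS (adjusted p = 0.0106) and rose by 1.87 ± 0.28 from GalN/LPS to pretreated livers (adjusted p = 0.00011). It was 0.92 ± 0.27 higher in pretreated than in saline livers (adjusted p = 0.00775), where the groups overlapped, and with library totals that difference was 0.24 (adjusted p = 0.428). Without GalN/LPS 1 the fall from saline was 0.78 and missed the threshold (adjusted p = 0.0517).

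Among the orosomucoids, Orm1 carried 92.1% to 98.5% of the counts of the family in each library. Orm1 stood at 986, 1084 and 1340.2 CPM in saline livers, 868, 1211 and 1166 CPM in GalN/LPS, 3871, 2010.2, 1391 and 1664 CPM in pretreated, and 1065, 2106 and 836 CPM in dmPGE2 livers. GalN/LPS and saline livers overlapped (-0.07 ± 0.35, adjusted p = 0.882). Every pretreated library lay above every GalN/LPS and saline library, and Orm1 rose by 1.05 ± 0.34 over GalN/LPS (adjusted p = 0.0172) and by 0.97 ± 0.34 over saline livers (adjusted p = 0.0196). With library totals these differences were 0.55 (adjusted p = 0.162) and 0.30 (adjusted p = 0.437), and without pretreated 1 they were 0.64 (adjusted p = 0.0685) and 0.57 (adjusted p = 0.0879). The sum of the 3 genes was 2.13 times as high in pretreated as in GalN/LPS livers by group means, with no overlap. The rise over GalN/LPS was also lost without GalN/LPS 1 (0.91, adjusted p = 0.0726), and the rise over saline without saline 1 (0.88, adjusted p = 0.07), without saline 2 (0.94, adjusted p = 0.0558) and with DESeq2 (0.92, adjusted p = 0.0512).

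Orm2 and Orm3, the less abundant copies, had their highest level in pretreated 1. Orm2 stood at 28.8, 22.1 and 73.6 CPM in saline livers, 12.4, 15.6 and 21.6 CPM in GalN/LPS, 312, 55.3, 20.9 and 23.1 CPM in pretreated, and 25.2, 61.6 and 19.8 CPM in dmPGE2 livers. The saline and GalN/LPS libraries did not overlap, but Orm2 did not pass the test there (-1.33 ± 0.81, adjusted p = 0.183). Orm2 rose by 2.64 ± 0.81 from GalN/LPS to pretreated livers (adjusted p = 0.0129). Without pretreated 1 this was 1.01 (adjusted p = 0.0973) and without GalN/LPS 1 it was 2.47 (adjusted p = 0.0517). Orm3 was the least abundant, at 0.847 to 1.56 CPM in saline, 1.01 to 5.17 CPM in GalN/LPS, 1.50 to 20.3 CPM in pretreated and 2.28 to 5.92 CPM in dmPGE2 livers. It was called in 1 comparison, higher in pretreated than in saline livers (2.90 ± 0.71, adjusted p = 0.00217), although pretreated 3 lay within the saline range. Against GalN/LPS its difference was 1.42 ± 0.65 (adjusted p = 0.0737), and 0.54 without pretreated 1.

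Lcn2, the siderophore-binding lipocalin of hepatocytes and neutrophils, stood above its saline levels in every library of the other groups, and was highest in a dmPGE2 library without GalN/LPS. It stood at 51.0, 14.1 and 69.2 CPM in saline and at 235, 166 and 226 CPM in GalN/LPS livers. It stood at 541, 199, 73.1 and 151 CPM in pretreated and at 181, 749.7 and 80.6 CPM in dmPGE2 livers. Pretreated 1 and dmPGE2 2 were highest in their groups, and pretreated 3 and dmPGE2 3 lay just above it. Lcn2 rose by 2.22 ± 0.76 on the log2 scale from saline to GalN/LPS (adjusted p = 0.0213) and by 2.43 ± 0.74 from saline to pretreated livers (adjusted p = 0.00897). Between pretreated and GalN/LPS livers it differed by 0.20 ± 0.68 (adjusted p = 0.813), a value that was -0.57 without pretreated 1 and -0.33 with library totals, neither past the test. The rise in GalN/LPS livers was lost without saline 2 (1.79, adjusted p = 0.0786) and without GalN/LPS 3 (2.05, adjusted p = 0.0518). The neutrophil marker sum, at 6.24 to 10.05 CPM, was within the saline range in the dmPGE2 libraries where Lcn2 was 80.6 to 749.7 CPM.

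The pentraxin mRNAs fell in GalN/LPS livers. Apcs, which encodes serum amyloid P component, stood at 160.4, 103 and 184 CPM in saline livers, 55.8, 72.9 and 68.9 CPM in GalN/LPS, 306, 132, 124 and 150.4 CPM in pretreated, and 129, 361 and 101 CPM in dmPGE2 livers. Every GalN/LPS library lay below every other library. Apcs fell by 1.18 ± 0.41 on the log2 scale from saline to GalN/LPS (adjusted p = 0.0245) and rose by 1.44 ± 0.40 from GalN/LPS to pretreated livers (adjusted p = 0.00708). The rise held without each library in turn (1.04 to 1.57), while the fall was lost without saline 1, saline 3 or GalN/LPS 1 (adjusted p from 0.0548 to 0.0767). Crp, the gene of C-reactive protein, varied least of the 10, at 301, 247 and 291 CPM in saline livers, 123, 221 and 167 CPM in GalN/LPS, 309.7, 207, 265 and 241 CPM in pretreated, and 301, 440.3 and 298 CPM in dmPGE2 livers. Crp fell by 0.72 ± 0.21 from saline to GalN/LPS (adjusted p = 0.0104), with no overlap, and was 0.59 ± 0.20 higher in pretreated than in GalN/LPS livers (adjusted p = 0.0231), where pretreated 2 lay within the GalN/LPS range. With library totals the pretreated difference was 0.09 (adjusted p = 0.643), and it was also lost without GalN/LPS 1 (0.40), GalN/LPS 3 (0.56) or pretreated 1 (0.48). Without GalN/LPS 1 the fall from saline missed the threshold (-0.53, adjusted p = 0.0536).

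Apcs (chromosome 1, 172893961 to 172895041, minus strand) and Crp (chromosome 1, 172698055 to 172833031, plus strand) lie within one region, and their coding sequences were 58.8% identical. Crp overlaps a processed pseudogene, so a part of its reads could be counted there. Lcn2 lies on chromosome 2 at 32384633 to 32388252 on the minus strand. Per kilobase of mRNA, a scale on which genes can be compared, Saa1 was highest in saline livers (1888 ± 1428 CPM per kilobase, n = 3), before Orm1 (1467 ± 236), Saa2, Saa4 and Crp. The spread of Saa1 and Saa2 is such that the order of the leading 3 is not resolved. In GalN/LPS livers Orm1 was highest (1396 ± 241), and Saa3 (456 ± 106) ranked before Saa1 (297 ± 218), which overlapped with Saa3. In pretreated livers Saa1 (5208 ± 6042) and Saa2 ranked before Orm1 (2883 ± 1446), again with overlapping libraries. Orm3 ranked last in all groups. The gene lengths behind the deposited FPKM exceed the mRNA length several-fold for Saa1 (2478 against 609 bases), Saa2, Saa3 and Lcn2, so in FPKM Orm1 led in all 4 groups.

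**Figure D3:**
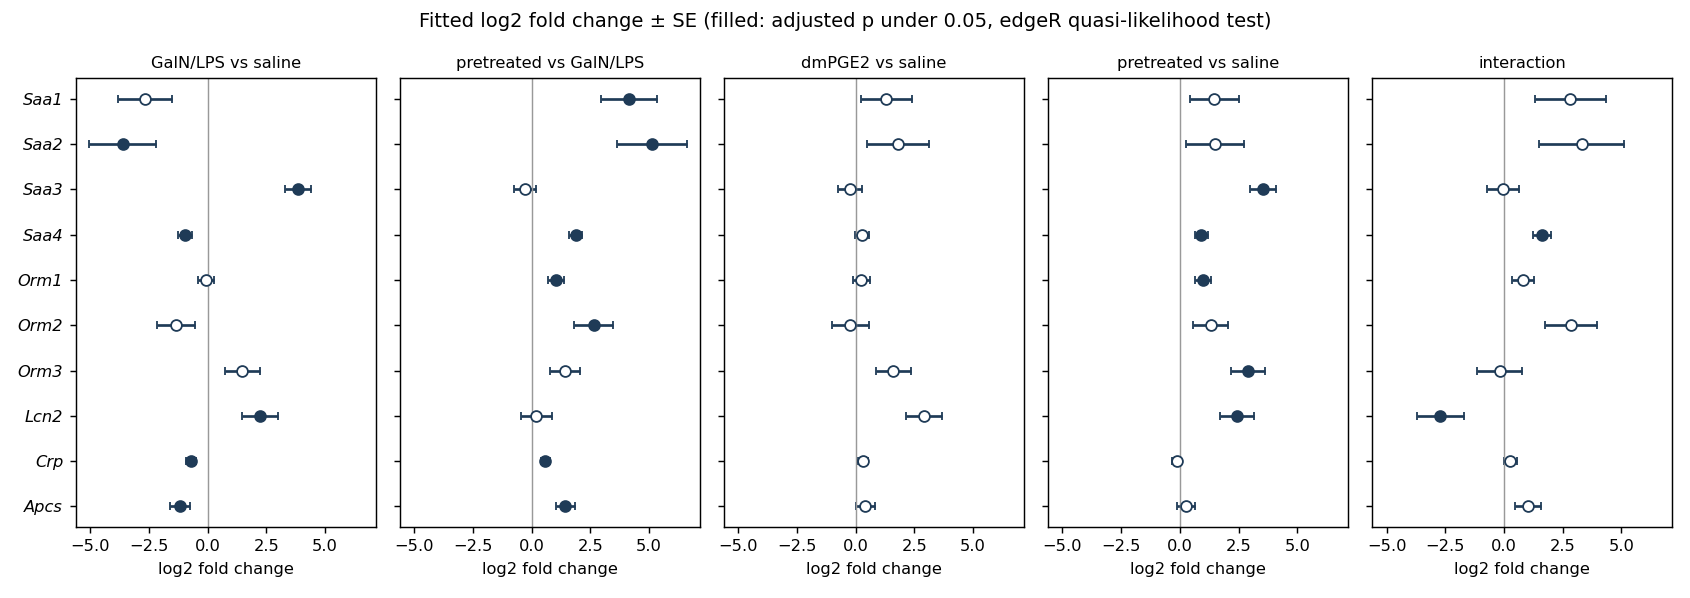
Fitted log2 fold change with its standard error for the 10 genes in each of the 5 comparisons, filled where the adjusted p was under 0.05 in edgeR's test (n = 3, 3, 4 and 3 libraries). In pretreated against GalN/LPS livers 7 symbols are filled, all to the right of 0, and in dmPGE2 against saline livers none is filled.

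Counted over the group, GalN/LPS raised 2 of the 10 genes against saline (Saa3 and Lcn2) and lowered 4 (Saa2, Saa4, Crp and Apcs). Of all genes tested 27.4% were higher and 25.6% lower in that comparison, so these counts are near the background. Their median log2 fold change was -0.84, against 0.02 over all genes. With 1 library left out at a time the lowered count ran from 0 (without GalN/LPS 1) to 6, with 2 without saline 1 or saline 3. The raised count was 1 without saline 2 or without GalN/LPS 3 and 3 without GalN/LPS 1 or without pretreated 1. The groups did not overlap for 6 of the 10 genes, 2 higher and 4 lower, where 30.3% of all genes were wholly higher and 29.5% wholly lower.

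In pretreated against GalN/LPS livers 7 of the 10 genes were called higher (Saa1, Saa2, Saa4, Orm1, Orm2, Crp and Apcs) and none lower, where 24.4% of all genes were higher and 30.1% lower. Their median was 1.43, against -0.10 over all genes. The count was 5 with library totals, where Orm1 and Crp dropped out, and 4 on filtered FPKM with limma. It was 4 without pretreated 1 or without GalN/LPS 1. Of the 10, 3 (Saa4, Orm1 and Apcs) had no overlap between the groups, wholly higher in pretreated livers, where 22.7% of all genes were wholly higher and 27.7% wholly lower. GalN/LPS against saline and pretreated against GalN/LPS share the GalN/LPS libraries, so opposite signs in these comparisons are not independent.

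Against saline, pretreated livers had 5 of the 10 genes higher (Saa3, Saa4, Orm1, Orm3 and Lcn2) and none lower, where 34.8% of all genes were higher and 30.2% lower. The median was 1.39, against 0.14 over all genes. For 3 of them (Saa3, Orm1 and Lcn2) the groups did not overlap, where 32.6% of all genes were wholly higher and 29.2% wholly lower. With library totals 3 of the 5 remained (Saa3, Orm3 and Lcn2) and Crp was called lower (-0.82, adjusted p = 0.000273), against -0.13 ± 0.20 (adjusted p = 0.58) with TMM. Apcs differed by 0.25 ± 0.38 (adjusted p = 0.574) and Orm2 by 1.31 ± 0.76 (adjusted p = 0.14), the latter -0.32 without pretreated 1.

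dmPGE2 alone changed none of the 10 genes past the test against saline, and 0% of all 14280 genes were called in edgeR, where the lowest adjusted p was 0.0628 and 1990 genes had an unadjusted p under 0.05. DESeq2 called 137 genes higher and 140 lower in that comparison, and none of the 10. An unadjusted p under 0.05 was reached by 2 of them, Lcn2 (2.91 ± 0.78, adjusted p = 0.127) and Orm3 (1.60 ± 0.74, adjusted p = 0.351). Without dmPGE2 2, Lcn2 differed by 1.55 (adjusted p = 0.438) and Orm3 by 1.05 (adjusted p = 0.685) in edgeR. Both were wholly higher than in saline livers, as were 14.3% of all genes, while 12% were wholly lower. Saa1 differed by 1.31 ± 1.08 (adjusted p = 0.618) and Saa2 by 1.80 ± 1.31 (adjusted p = 0.562), and most of that came with dmPGE2 2, without which they differed by 0.21 and 0.32.

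The difference between the effect of dmPGE2 in GalN/LPS livers and its effect without GalN/LPS was called for 2 of the 10 genes, where 15.4% of all genes were higher and 19.6% lower. For Saa4 it was 1.61 ± 0.39 (adjusted p = 0.00733), and it stayed past the test without each library in turn (1.37 to 1.82). For Lcn2 it was -2.71 ± 1.00 (adjusted p = 0.0462). The Lcn2 call was lost in 9 of 13 fits with a library left out, from an adjusted p of 0.0506 to 0.253 without dmPGE2 2 (-1.33), and also with DESeq2 (0.0679), on FPKM with limma (0.0645) and with the replicate block (0.118). Orm2 came close at 2.87 ± 1.12 (adjusted p = 0.0563). Saa1 (2.83 ± 1.50, adjusted p = 0.15) and Saa2 (3.31 ± 1.81, adjusted p = 0.161) carried larger errors. Without dmPGE2 2, 4 of the 10 were higher (Saa4, Orm1, Orm2 and Apcs), where 1720 of all genes were higher. Over the 13 fits with a library left out, the interaction passed in 1 for Orm1, 1 for Apcs and 4 for Orm2. The interval from dmPGE2 to collection may differ between its groups, and that cannot be told apart from the interaction.

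Most libraries, but not all, lay to one side of their group mean across these genes. All 10 genes were above the group mean in pretreated 1, dmPGE2 2 and GalN/LPS 3, and 9 of 10 in saline 3. All 10 were below it in saline 2, pretreated 4 and dmPGE2 1, and 9 of 10 in GalN/LPS 1, pretreated 3 and dmPGE2 3. GalN/LPS 2 had 5 genes above and 5 below, and saline 1 and pretreated 2 each had 7 above and 3 below. Some deviations were small, such as 0.013 for Crp in GalN/LPS 3. The like counts over all genes were not taken. Together the 10 mRNAs took 1.52% of all counts in pretreated 1 and 0.210% in pretreated 3, and 1.89% in dmPGE2 2 against 0.490% in dmPGE2 3. The share was 0.264% to 0.718% in saline and 0.213% to 0.306% in GalN/LPS livers. Means on the log2 scale were used here, and within a group such deviations sum to 0, so the signs of libraries are not independent.

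**Figure D4:**
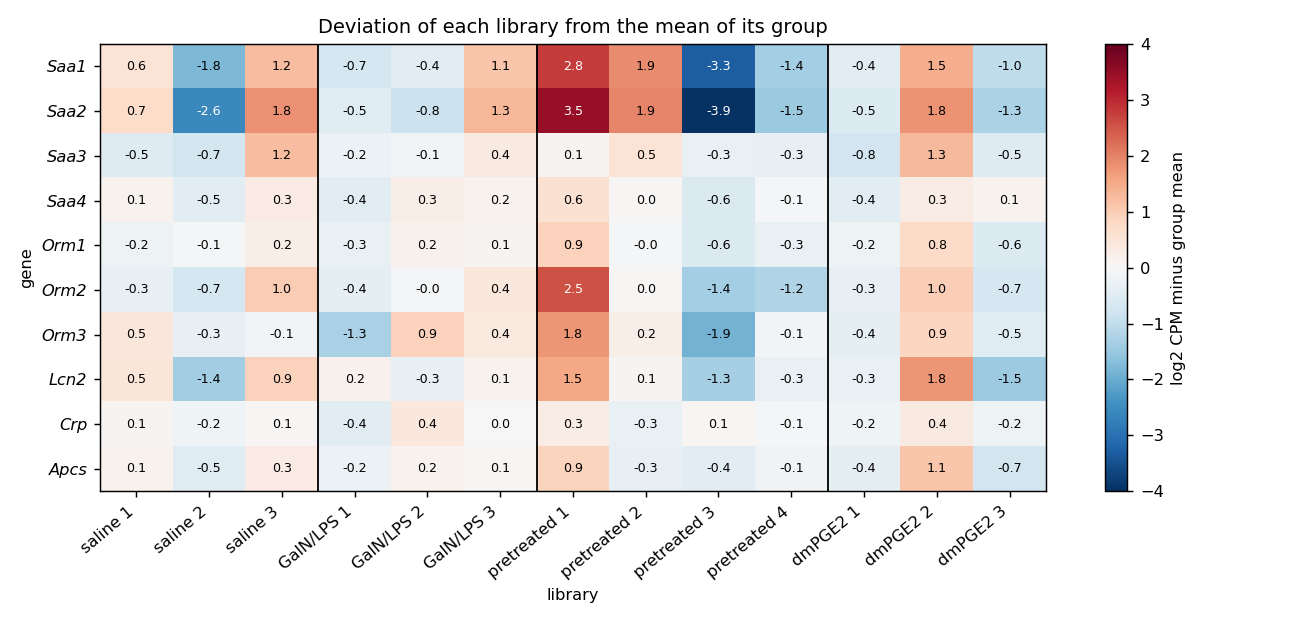
Deviation of each library from the mean of its group on the log2 CPM scale, for the 10 genes (rows) and 13 libraries (columns), with vertical lines between groups. Pretreated 1 and dmPGE2 2 are above the mean in all 10 rows, and pretreated 4 and dmPGE2 1 below it in all 10.

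The spread within groups differed greatly between the 10 genes. Pooled over the 4 groups, the SD within a group was 2.40 for Saa2 and 1.96 for Saa1 on the log2 scale, ranks 5 and 9 among the 14280 genes, whose median was 0.28. It was 1.21 for Orm2 (rank 50), 1.19 for Lcn2 (rank 55) and 1.10 for Orm3 (rank 84). Saa3 (0.78), Apcs (0.62), Orm1 (0.52) and Saa4 (0.42) were intermediate, and Crp (0.30, rank 6813) was close to the median gene. Among the 500 genes nearest in level to each, no gene had an SD as large as that of Saa2 or Orm2, and 1 had one as large as that of Saa1. For Crp 80 of the 500 did.

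**Figure D5:**
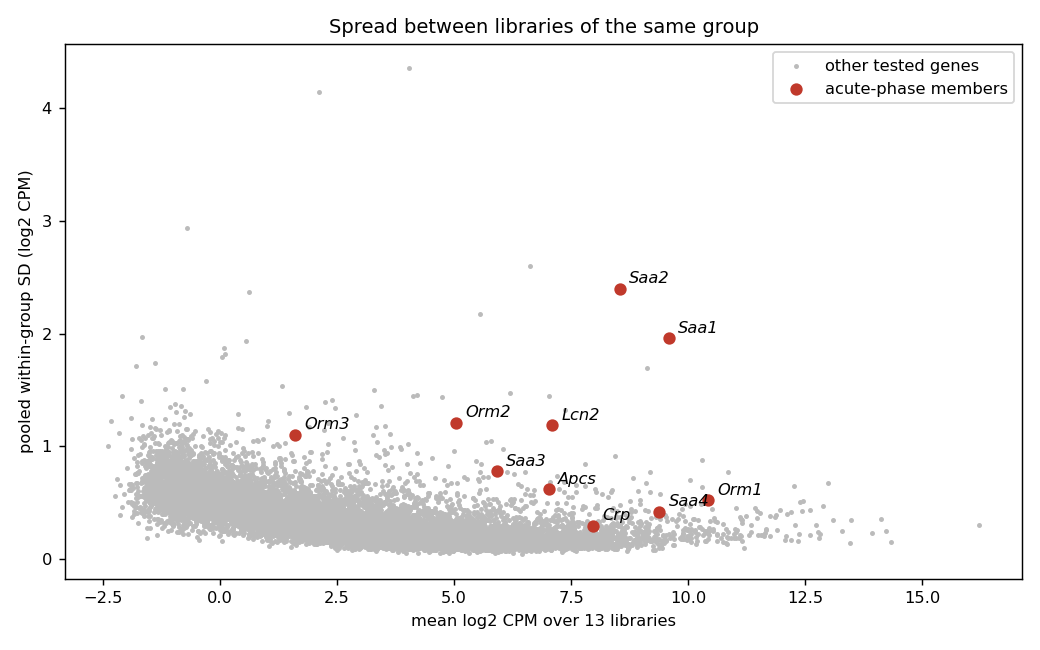
Pooled within-group SD of log2 CPM against mean log2 CPM over 13 libraries for all 14280 tested genes (grey) and the 10 acute-phase genes (red). Saa2 (2.40) and Saa1 (1.96) lie far above genes of like level, while Crp (0.30) and Saa4 (0.42) lie closer to them.

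The pattern of each gene over the 13 libraries was compared with those of 12753 genes with an established symbol by the root mean square distance of centered log2 levels. Saa1 and Saa2 were nearest to each other (0.62), and next to both came Scara5, a scavenger receptor that takes up ferritin (1.18 to Saa1 and 1.71 to Saa2). Nearest to Saa3 were Fgr, a kinase of myeloid cells (0.60), Itgam, an integrin chain of neutrophils and macrophages (0.65), and F13a1, the coagulation factor XIII A chain of macrophages and platelets (0.65). In pretreated against GalN/LPS livers Fgr and Itgam were lower past edgeR's test in all 13 fits with a library left out. Their values ran from -1.40 to -1.10 and from -1.25 to -0.86. F13a1 passed in 1 of the 13 fits (-1.51 to -0.32) and Saa3 in 0 (-0.50 to -0.095). Saa4 was nearest to the cytochrome Cyp3a13 (0.25), to haptoglobin Hp (0.31) and to the fibrinogen chain Fgb (0.36). Orm1 was nearest to hemopexin Hpx (0.18). Apcs (0.23) and Orm2 (0.63) were both nearest to Fgl1, a fibrinogen-like hepatocyte protein. Crp was nearest to Lin7a (0.17), Orm3 to Sebox (0.70) and Lcn2 to Eml6 (0.70). These distances describe likeness over libraries that share groups and scaling.

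Most other positive acute-phase genes also rose with pretreatment. Of 21 tested, 5 rose and 3 fell in GalN/LPS against saline livers, and 17 rose and 1 fell in pretreated against GalN/LPS livers (median 1.19). Of all genes 27.4% were higher and 25.6% lower in the former comparison, so the GalN/LPS counts are no larger than the background, and 24.4% were higher and 30.1% lower in the latter (median -0.10). Serpina3n, a serine protease inhibitor, stood at 720 ± 388 CPM in saline, 490 ± 88.6 CPM in GalN/LPS, 2630 ± 735 CPM in pretreated and 2723 ± 1265 CPM in dmPGE2 livers, and rose with pretreatment by 2.42 ± 0.41. Hp, which binds free hemoglobin, fell by 0.91 ± 0.36 with GalN/LPS (adjusted p = 0.0431) and rose by 1.46 ± 0.35 with pretreatment. The fall of Hp was lost without saline 1, saline 3, GalN/LPS 1 or GalN/LPS 2 (adjusted p from 0.0818 to 0.142). Hpx, the heme carrier, rose by 1.24 ± 0.32, the complement component C4b by 1.11 ± 0.18 and the endotoxin-binding protein gene Lbp by 1.13 ± 0.28 with pretreatment. With library totals these rises were 1.93 for Serpina3n, 0.95 for Hp, 0.74 for Hpx and 0.61 for C4b, all past the test, and 0.63 for Lbp (adjusted p = 0.0552). Hamp, the gene of the iron hormone hepcidin, fell by 1.92 ± 0.56 with GalN/LPS (adjusted p = 0.00927). Il1rn, the interleukin 1 receptor antagonist, rose by 6.10 ± 0.44 with GalN/LPS and was the gene that fell with pretreatment, by 1.75 ± 0.32.

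Negative acute-phase genes, whose mRNAs classically decline in the response, did not decline as a group. Of 11 tested, 1 fell and none rose in GalN/LPS against saline livers, and 10 rose in pretreated against GalN/LPS livers (median 0.64), against the same background of 25.6% lower and 27.4% higher with GalN/LPS and 24.4% higher with pretreatment. Transthyretin Ttr stood at 6221 ± 576 CPM in saline, 6713 ± 1197 CPM in GalN/LPS and 11768 ± 2189 CPM in pretreated livers, a rise with pretreatment of 0.81 ± 0.19. Coagulation factor F12 rose by 0.64 ± 0.15. Serpina6, the corticosteroid-binding globulin, fell by 0.89 ± 0.33 with GalN/LPS and rose by 0.85 ± 0.32 with pretreatment. Its fall was lost without saline 3, GalN/LPS 1 or GalN/LPS 3 (adjusted p from 0.0824 to 0.113) and was -1.46 without GalN/LPS 2. Its rise was lost without GalN/LPS 1, GalN/LPS 3, pretreated 3 or pretreated 4 (adjusted p from 0.0752 to 0.165) and ran from 0.53 without GalN/LPS 3 to 1.42 without GalN/LPS 2. With library totals the rises were 0.30 for Ttr (adjusted p = 0.0592), 0.14 for F12 (adjusted p = 0.372) and 0.37 for Serpina6 (adjusted p = 0.256). The 9 hepatocyte markers, which include Ttr, also all rose with pretreatment under TMM scaling (median 0.72), and none of them was called in GalN/LPS against saline livers. Their part in the rises of the acute-phase mRNAs was not tested.

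Most mRNAs of the cytokines and factors that act on these genes fell with pretreatment. Of 27 signalling genes tested, 14 rose and 4 fell with GalN/LPS, and 3 rose and 19 fell with pretreatment. The shares of all genes were 27.4% higher and 25.6% lower with GalN/LPS, and 24.4% higher and 30.1% lower with pretreatment. Il1b, interleukin 1 beta, rose from 0.915 ± 0.379 to 165 ± 34.3 CPM with GalN/LPS and stood at 28.5 ± 6.51 CPM in pretreated livers (a fall of 2.53 ± 0.20). Tnf rose by 6.76 ± 0.44 and fell by 1.85 ± 0.28 with pretreatment. Il6 had no counts in saline and dmPGE2 livers, stood at 1.95 to 3.56 CPM in GalN/LPS livers and fell to 0.0683 to 0.556 CPM in pretreated livers (-2.95 ± 0.51, adjusted p = 0.000655). Socs3, the feedback inhibitor of STAT3 signalling, rose by 3.33 ± 0.59 and fell by 1.38 ± 0.50 with pretreatment (adjusted p = 0.0294), with overlapping groups. The fall of Socs3 passed the test in 8 of 13 fits with a library left out, and was lost without GalN/LPS 2, GalN/LPS 3 or pretreated 2, 3 or 4 (-1.37 to -1.13, adjusted p from 0.0561 to 0.0909). The C/EBP factor Cebpd rose by 3.65 ± 0.29 and fell by 1.62 ± 0.24, and the NF-kB partner Nfkbiz rose by 3.28 ± 0.21 and fell by 2.18 ± 0.18. Cebpb did not change with GalN/LPS past the test (-0.12 ± 0.20) and fell by 1.60 ± 0.19 with pretreatment. Stat3 passed the test in neither comparison (-0.51 ± 0.22, adjusted p = 0.0615, and 0.09 ± 0.21). Saa1, Saa2, Saa4, Orm1, Orm2, Crp and Apcs thus rose in the same comparison in which 19 of these 27 mRNAs fell.

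Most receptors and partners of the acute-phase proteins rose with GalN/LPS and fell with pretreatment, and some of them are also on the lists of immune cell markers. Of 18 tested, 15 rose and 1 fell with GalN/LPS (median 2.64), and 1 rose and 13 fell with pretreatment (median -0.98). Over all genes the medians were 0.02 and -0.10, with the shares of calls given for the signalling genes. Fpr2, a formyl peptide receptor that binds serum amyloid A, rose by 6.45 ± 0.33 and fell by 1.64 ± 0.22. Tlr2, a further receptor for serum amyloid A, rose by 4.79 ± 0.25 and fell by 2.18 ± 0.20. With dmPGE2 alone none of the signalling, receptor or other acute-phase genes was called, with an unadjusted p under 0.05 in 6 of 27, 4 of 18, 5 of 21 positive and 4 of 11 negative acute-phase genes.

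The 250 bases before the RefSeq start of each gene were searched on both strands for letters of the 3 factor families named above, since most of these genes moved together with pretreatment. The table (GRCm38.p6) held 9 of the 10 genes, all but Orm1. The C/EBP letters TTGCNNAA occurred in 7 of the 9 (all 4 amyloid genes, Orm2, Orm3 and Lcn2), against 9.56% of 32851 promoters of the same length. The STAT3 letters TTCNNNGAA occurred in Apcs alone (7.02% of all promoters) and the consensus letters for NF-kB in none of the 9 (0.98%). Genes with and without the C/EBP letters were among those that rose with pretreatment, and Saa3, Orm3 and Lcn2 hold them and did not pass that test. The part of these letters in the rises was not tested. A match is a description of letters, and copies of a gene family are not independent in it. The promoters of Saa1, Saa2, Saa3 and Orm2 are printed 5′ to 3′ on the gene's strand, since Saa1, Saa2 and Orm2 rose with pretreatment and Saa3 did not pass that test, with the C/EBP letters in capitals.
Saa1 chr7:46742981-46743230 minus strand: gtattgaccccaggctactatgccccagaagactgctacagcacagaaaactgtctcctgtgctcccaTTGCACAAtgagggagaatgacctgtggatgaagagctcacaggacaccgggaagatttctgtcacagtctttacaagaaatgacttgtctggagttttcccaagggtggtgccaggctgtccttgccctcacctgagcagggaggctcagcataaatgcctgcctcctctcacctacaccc
Saa2 chr7:46751583-46751832 plus strand: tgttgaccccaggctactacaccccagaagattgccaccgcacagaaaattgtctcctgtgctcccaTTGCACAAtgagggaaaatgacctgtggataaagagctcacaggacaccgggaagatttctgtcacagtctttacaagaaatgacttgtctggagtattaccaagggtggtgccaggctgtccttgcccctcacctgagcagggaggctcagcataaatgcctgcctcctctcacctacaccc
Saa3 chr7:46715677-46715926 minus strand: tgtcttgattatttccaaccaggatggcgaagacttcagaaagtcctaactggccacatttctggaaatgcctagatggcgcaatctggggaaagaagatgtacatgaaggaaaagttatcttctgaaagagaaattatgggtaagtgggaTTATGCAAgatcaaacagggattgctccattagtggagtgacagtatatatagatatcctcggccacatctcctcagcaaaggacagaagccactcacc
Orm2 chr4:63362199-63362448 plus strand: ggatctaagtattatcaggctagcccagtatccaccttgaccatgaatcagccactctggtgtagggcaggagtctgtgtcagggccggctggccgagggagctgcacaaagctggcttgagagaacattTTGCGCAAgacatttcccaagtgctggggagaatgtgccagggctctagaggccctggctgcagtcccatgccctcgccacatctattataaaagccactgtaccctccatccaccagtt
The C/EBP letters lie at -182 to -175 in Saa1 and at -183 to -176 in Saa2. In Saa3 they lie at -99 to -92 on the opposite strand, and in Orm2 at -120 to -113 on both strands.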

How the data were processed

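RNA sequencing of 13 libraries of mouse liver was used as the authors deposited it, as raw counts per gene and as FPKM for the same genes and libraries. The counts are whole numbers per Ensembl gene. The deposited FPKM divide the count by the deposited gene length and by a library denominator. The submitters' processing notes name HISAT2 and GRCm38 (mm10). The read counter, annotation release and strand setting were not given in the sources at hand. Per the labels' protocols each library was made from 1 µg of total RNA with the NEBNext Ultra RNA kit.

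Groups come from the sample labels, and columns were matched by group name and replicate number. A single fit over all libraries was made in edgeR 4.0.16 (R 4.3.3), TMM factors, its filter by group (14280 of 54532 genes, with 99.9% of the counts) and group as the only term. The quasi-likelihood F test was two-sided, with Benjamini-Hochberg adjustment at 0.05. Standard errors come from the fold change and the F statistic. The script was tested on simulated counts. Alternatives were library totals, DESeq2 1.42.0, no filter, the compared groups alone, limma 3.58.1 on log2 of FPKM plus 1 or 0.1, the replicate number as a block, and each library left out. Total counts were 14829838 to 20777809 per library, and genes at a few CPM or less, such as Orm3 and Il6, rest on few counts in some libraries.

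The 10 genes and the lists were chosen with earlier results of these data known. The rule for names took all 10 genes, Il6, Il1b, Tnf, Stat3, Socs3, Cebpb, Cebpd and Nfkbiz, up to 4 genes per list by smallest adjusted p in GalN/LPS against saline and in pretreated against GalN/LPS, and the 3 nearest patterns. Some of these are not named or not reported here. Adipoq, Lep and Plin1 fall outside the rule and were chosen after their values were seen. Protein identity was planned, and coding-sequence identity from GENCODE M21 transcripts was used in its place.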

Additional observations from a re-analysis of the deposited data

Results flagged for a closer look

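In the pretreated group 1 library stood far from the other 3 in 2 of the genes. Pretreated 1 had 312 CPM of Orm2, where the gap to the next library was 0.882 of the whole range, and 306 CPM of Apcs, where it was 0.856. The limit for 4 libraries is 0.829. Chance passes it in about 1 of 20 groups, and 40 genes were examined, so 2 are no more than chance would give. The gap was taken on CPM, not on the log2 scale of the deviations and spreads above. On the log2 scale pretreated 1 deviated by 2.53 for Orm2 and 0.88 for Apcs. The next library deviated by 0.039 and -0.14, and the gap on that scale was not tested. The 10 acute-phase genes were all above their group mean in that library.

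By the interaction in edgeR's test, the effect of dmPGE2 differed between livers with and without GalN/LPS in 2 acute-phase genes and 18 others named. Of all genes tested, 15.4% were higher and 19.6% lower in the interaction. Many of the others were named by small adjusted p in comparisons that share libraries with the interaction, or by a pattern near that of a member. Their number is thus not independent of how they were named. The effect of dmPGE2 was higher with GalN/LPS for Saa4 (1.61, adjusted p = 0.00733), Hamp (3.04), Serpina6 (1.95), Hp (1.37), Cyp3a13 (1.23), Ttr (1.22), Fgb (1.15), C4b (1.00) and F12 (0.85), with adjusted p from 0.00525 to 0.0431. It was lower for Lcn2 (-2.71, adjusted p = 0.0462), Il1b (-3.25), Il1rn (-2.77), Tlr2 (-2.71), Eml6 (-2.47), Fpr2 (-1.94), Cebpd (-1.90), Nfkbiz (-1.51), Itgam (-1.33), Cebpb (-1.14) and Fgr (-1.12), with adjusted p from 0.00018 to 0.0462. Hamp was lower in each dmPGE2 library (70.9, 349 and 237 CPM) than in each saline library (428 to 1238 CPM), though not past the test there (-2.02 ± 0.56, adjusted p = 0.143). With library totals Hp, Cyp3a13, Fgb, C4b and F12 no longer passed the interaction test (adjusted p from 0.0972 to 0.26). With 1 library left out at a time, the interaction passed in 3 of 13 fits for Itgam (adjusted p up to 0.148), 4 for Lcn2 (0.253), 4 for Eml6 (0.119), 5 for Fgb (0.103), 6 for Hp (0.0983) and 12 for Fgr (0.059), and in all 13 for the other 14 genes.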

How the results depend on the processing

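With library totals, 3 of the 10 genes were higher in pretreated than in saline livers and 1 lower. The signs turned without passing the test for C4b (-0.063) and Ttr (-0.075) in GalN/LPS against saline, Lcn2 (-0.33), Stat3 (-0.44) and Cfb (-0.19) in pretreated against GalN/LPS, Apcs (-0.43) in pretreated against saline, and Crp (-0.27), Serpina3n (-0.039) and Lbp (-0.020) in the interaction. Over all genes, library totals gave 616 higher and 6804 lower in pretreated against GalN/LPS (3481 and 4299 with TMM), 1683 and 6803 in pretreated against saline (4969 and 4313), and 182 and 5209 in the interaction (2202 and 2797). With no filter on low counts the prior degrees of freedom became infinite, so its p-values leave out the spread of each gene. It called 4 of the 10 genes higher in dmPGE2 against saline, 8 in pretreated against saline and 6 in the interaction, with C4b at -0.019 and Ttr at -0.027 in GalN/LPS against saline, and 290 genes higher and 171 lower over all genes with dmPGE2 alone. Limma on log2 FPKM called 4 of the 10 higher in pretreated against GalN/LPS with either pseudocount, with Lcn2 at -0.20 (plus 1) and -0.21 (plus 0.1), and none lower in the interaction (0). Without a filter it called 2 there, with Lcn2 at -0.20, 1 higher and 2 lower in GalN/LPS against saline, 1 higher in pretreated against saline and 0 lower in the interaction. Over all genes with dmPGE2 alone, limma on filtered FPKM plus 1 called 12 higher and 4 lower. It called 7 and 3 without a filter, and 0 in each direction with a pseudocount of 0.1. DESeq2 called 0 of the 10 lower in the interaction.

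Correlations of deviations between samples with the same replicate number ran from -0.31 to 0.09, against a median of 0.012 between other numbers. The lowest, -0.31 and -0.28, were between GalN/LPS and pretreated libraries. Such correlations cannot show whether a number marks a shared batch. With the replicate block 0 of the acute-phase genes followed here were lower in the interaction, where 2153 of all genes were lower. With that block Saa3 was 0.13 in the interaction, and the Saa2 call in GalN/LPS against saline was lost (-3.57, adjusted p = 0.0558).

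With each library left out in turn, the counts of the 10 genes ranged from 1 to 3 higher and 0 to 6 lower in GalN/LPS against saline, 4 to 8 higher in pretreated against GalN/LPS, and 1 to 4 higher and 0 to 1 lower in the interaction. Signs turned, none past the test, for Orm1 (-0.24 to 0.061), Cebpb (-0.45 to 0.014), C4b (-0.0058 to 0.23) and Ttr (-0.050 to 0.17) in GalN/LPS against saline, and for Lcn2 (-0.57 to 0.51) and Stat3 (-0.032 to 0.19) in pretreated against GalN/LPS. They also turned for Saa3 (-1.18 to 0.66), Orm1 (-0.25 to 0.48), Orm2 (-0.88 to 0.48) and Apcs (-0.37 to 0.71) in dmPGE2 against saline, Orm2 (-0.32 to 2.02) and Apcs (-0.14 to 0.44) in pretreated against saline, and Saa3 (-0.94 to 0.90), Orm3 (-1.07 to 0.39) and Stat3 (-0.28 to 0.19) in the interaction. Over all genes, 1370 were higher in the interaction without GalN/LPS 3, and up to 14 in each direction were called with dmPGE2 alone. Apart from the fit with no filter, 169 of 200 values of the 10 genes kept their side of the threshold and their sign in GalN/LPS against saline, 173 of 200 in pretreated against GalN/LPS, 193 of 200 in dmPGE2 against saline, 184 of 200 in pretreated against saline and 158 of 190 in the interaction. Beyond what the settings themselves change, the cause was not tested. Orm3 and Il6 rest on few counts in some libraries.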
